A study of Rattus norvegicus with 16 samples.

Results

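Gad1 and Gad2 encode the enzymes that make the neurotransmitter GABA from glutamate, and their transcripts were followed in the fetal suprachiasmatic nuclei (SCN) of the rat. The members were chosen by Ensembl identifier, ENSRNOG00000000007 for Gad1 and ENSRNOG00000018200 for Gad2, and are 2 of the 32883 genes of the count table. Both passed the filter on low counts, with 13685 genes in all. They were chosen with their levels by group and circadian time already known, so these levels are given as a description and without tests.

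The 16 libraries came from Wistar rat fetuses of 16 mothers, kept in constant darkness, with 1 litter per library. In Group A the mother had a sham operation and ate ad libitum (8 libraries), and in Group B her SCN had been lesioned and food was offered in a fixed daily window (8 libraries). Lesion and feeding regime changed together, so their effects cannot be told apart. Each group was sampled at 8 circadian times (CT) 3 h apart, from CT0 to CT21, where CT12 is the onset of maternal activity in Group A and of food-related activity in Group B. The subjective day is therefore CT0 to CT9 and the subjective night CT12 to CT21. A library holds punches from several fetuses, 8 for Group A and 5 to 10 for Group B by the protocol, although the sample titles give 8 throughout. The labels give embryonic age 17, whereas the study's methods place sampling later in gestation. The sampled times spanned about a day of fetal age, and each litter stands for 1 circadian time of its group. Total counts per library were 10746066 to 12781966 for Group A. They were 10047500 to 18738585 for Group B, whose CT9 library was the deepest of all. The punched tissue was not checked here against marker genes of the SCN or of other cells, because no table used here links further Ensembl identifiers to symbols. In such bulk tissue, fewer GABA neurons and less RNA per neuron cannot be told apart.

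Glutamate decarboxylase removes a carboxyl group from glutamate with pyridoxal phosphate as cofactor. GAD67, the product of Gad1, is found throughout the neuron and supplies most of the GABA of the brain, while GAD65, the product of Gad2, is anchored to membranes at axon terminals and is more readily activated by its cofactor. Nearly all neurons of the adult SCN use GABA, and in the fetal brain GABA often depolarizes neurons and acts before synapses are mature.

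The genes lie on different chromosomes and have promoters of different sequence. The stretches before the first annotated transcription start are shown from RefSeq on the assembly GRCr8, since the reads had been mapped to another build. Capitals mark a TATA box (TATAAA) in Gad1 and an E-box-like element (CACGTT) in Gad2.
Gad1, chr3:75777202-75777259, plus strand: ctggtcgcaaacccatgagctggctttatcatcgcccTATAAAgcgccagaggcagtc
Gad2, chr17:89671468-89671717, plus strand: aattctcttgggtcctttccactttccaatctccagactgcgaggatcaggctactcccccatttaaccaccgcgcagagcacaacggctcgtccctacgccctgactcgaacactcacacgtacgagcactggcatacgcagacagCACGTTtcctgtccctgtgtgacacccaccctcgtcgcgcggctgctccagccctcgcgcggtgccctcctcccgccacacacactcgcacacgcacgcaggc

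Only the 58 bases before another annotated start are printed for Gad1, and 250 bases for Gad2. GC content was 67.7% in Gad1 and 63.7% in Gad2 over the whole window of 300 bases, of which 250 precede the start site used. In Gad1 all but the first 58 bases of the window follow the other, earlier annotated start. GC content and motif matches of Gad1 thus describe mostly sequence after that start. Motifs were searched on both strands of the 33469 windows of this length in RefSeq. The clock-related E-box CACGTG (6.42% of windows), the D-box TTATGNAA (3.66%) and the cAMP response element TGACGTCA (1.83%) matched neither gene. The E-box-like element matched 1 site in Gad2 and none in Gad1 (4.83% of windows). A GC box GGGCGG (33.1%) and the TATA box (14.2%) each matched 1 site in Gad1 and none in Gad2. The GC box lies after the earlier start of Gad1 and outside the printed stretch. A match is a description of letters and no evidence of binding.

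Both transcripts were abundant. Levels are given in CPM, that is counts per 1000000 counts of the library. Gad1 averaged 279 ± 27.0 CPM (SD, n = 8) in Group A against 320 ± 38.9 CPM (SD, n = 8) with the lesioned mothers of Group B. Gad2 averaged 305 ± 32.3 CPM (SD, n = 8) and 312 ± 47.3 CPM (SD, n = 8), respectively. Summed over both genes, mean CPM was 584 ± 52.5 in Group A against 632 ± 84.5 in Group B (SD, n = 8). By mean CPM, Gad1 ranked 469 and Gad2 445 among the 13685 genes, an order that does not correct for transcript length. The coefficient of variation across a group's 8 libraries was 9.67% (Group A) and 12.2% (Group B) for Gad1, and 10.6% and 15.2% for Gad2. The counting error of a single library was 1.33% to 1.93% for Gad1 and 1.37% to 1.99% for Gad2. Among the 2700 genes with a mean of at least 1000 counts, the median coefficient of variation was 5.70% for Group A and 5.56% for Group B. Of these genes, 88.4% (Group A) and 95.0% (Group B) varied less than Gad1, and 91.3% and 97.6% varied less than Gad2.

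Mean Gad1 levels were lower in the subjective day than in the subjective night in both groups. In Group A its CPM at CT0, CT3, CT6 and CT9 was 259, 262, 239 and 292, and at CT12, CT15, CT18 and CT21 it was 278, 288, 330 and 282. The lowest library was CT6 and the highest CT18, and day and night overlapped, since CT9 lay above every night library but CT18. In Group B the day libraries gave 299, 246, 326 and 303 CPM, and the night libraries 377, 347, 331 and 334 CPM, in the same order of times. All 4 night libraries of Group B lay above all 4 day libraries, as was so for 2.73% of all genes tested (5.34% separated in either direction). In Group A, 1.99% of genes separated in this way (4.09% in either direction), and Gad1 was not among them. The gap in Group B was narrow, the lowest night library being 1.63% above the highest day library, which is of the size of the counting error. Mean CPM at night was 1.12 times the day mean in Group A (294 ± 23.8 against 263 ± 22.0, n = 4 each) and 1.18 times in Group B (347 ± 21.1 against 293 ± 34.0, n = 4 each).

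For Gad2 the mean night level was above the mean day level in Group B and close to it in Group A. In Group A its CPM was 300, 327, 243 and 338 from CT0 to CT9, and 331, 298, 324 and 277 from CT12 to CT21. Both the lowest and the highest of these libraries, CT6 and CT9, fell in the day, and no night library lay above every day library. In Group B the values were 296, 232, 337 and 252 in the day and 366, 339, 340 and 330 in the night. Here 3 of the 4 night libraries exceeded all day libraries, and CT21 lay below the day library of CT6. Scaled by TMM (trimmed mean of M values) instead of total counts, all 4 did, with a gap of 0.801%, and 3% of all genes tested separated in this way under TMM. The night to day ratio of mean CPM was 1.02 in Group A (308 ± 24.9 against 302 ± 42.4, n = 4 each) and 1.23 in Group B (344 ± 15.5 against 279 ± 47.0, n = 4 each). Whether these ratios differ between groups was not tested. Day libraries of Gad2 had the larger SD in both groups, and in Group B the lowest libraries were CT3 and CT9.

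**Figure D1:**
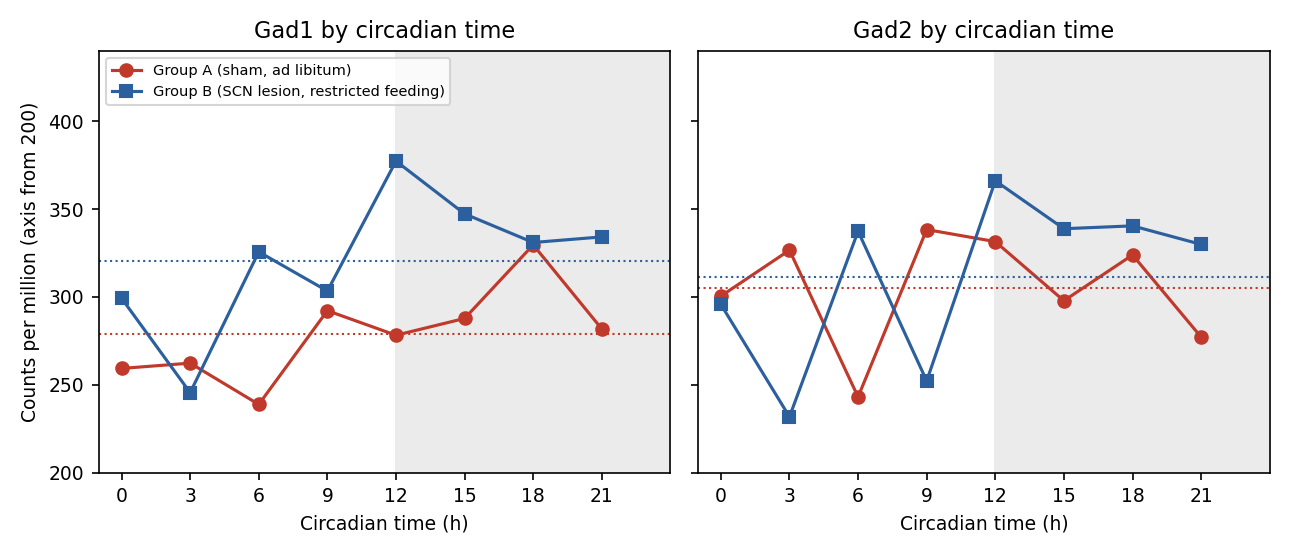
CPM of Gad1 and Gad2, on an axis that does not start at 0, against circadian time in h, with 1 library per point, dotted lines at group means and the subjective night shaded. In Group B both genes were lowest at CT3 and highest at CT12, while in Group A both were lowest at CT6.

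A cosine of 24 h was fitted to log2 CPM after TMM scaling, in each group alone. For Gad1 the fitted difference from trough to peak was 0.29 on the log2 scale (SE 0.10, n = 8) in Group A, which is 1.22-fold, with a peak at CT 16.6 (SE 1.35 h). In Group B it was 0.38 (SE 0.13, n = 8), or 1.30-fold, with a peak at CT 14.6 (SE 1.33 h). Both Gad1 peaks fell in the subjective night, and their ranges of 1 SE overlapped. For Gad2 the difference was 0.14 (SE 0.18, n = 8) in Group A, smaller than its error, and its peak time of CT 14.1 had an SE of 5.22 h. In Group B it was 0.40 (SE 0.20, n = 8), or 1.32-fold, with a peak at CT 15.9 (SE 1.93 h). Since any scatter gives a fitted amplitude above 0, the same fit was made for all genes. Among the 2700 with a mean of at least 1000 counts, the median was 0.11 for Group A (quartiles 0.070 and 0.17) and 0.13 for Group B (0.084 and 0.19). Over all 13685 genes, which include those with few counts, it was 0.21 (0.12 and 0.39) and 0.22 (0.13 and 0.40), respectively.

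The share of variance that the cosine accounted for (R2) was 0.617 for Gad1 in Group A and 0.622 in Group B, and 0.097 and 0.439 for Gad2. A straight line over the sampled day, which has 1 coefficient less, gave an R2 of 0.398 and 0.392 for Gad1 and of 0.0013 and 0.328 for Gad2. The Bayes information criterion also counts coefficients, and its lowest value marks the preferred fit. For Gad1 it was lowest for the cosine (Group A -31.8 against -30.3 for the line, Group B -27.7 against -26.0). For Gad2 a flat level was lowest in Group A (-25.8 against -22.5 for the cosine). In Group B the line was lowest at -21.6, but the cosine at -20.9 and a flat level at -20.5 were close to it. With 1 sampled day, a trend over the day and a daily rhythm cannot be told apart. Which litters were the older ones is not given in the sources used here, and the part of fetal age was not tested.

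The study sorted genes into 5 models by the Bayes information criterion, namely no rhythm, Arhy (rhythmic in Group A alone), Brhy (rhythmic in Group B alone), ABsync (a rhythm of equal amplitude and phase in each group) and ABdiff (rhythms with separate parameters). A gene is assigned if the weight of a model (BICW) is above 0.5. The study did so with the tools dryR and CompareRhythms, on transcripts with a unique gene identifier. Here the procedure of dryR was followed with negative binomial fits to the counts of the 13685 genes tested. The gene set and fits are thus not the study's own, and the shares need not equal those it reported. The weights describe the same values with which the genes were chosen and are no test of a rhythm. Gad1 was assigned to ABsync with a BICW of 0.842, as were 5.03% of all genes tested. Its next model was ABdiff with 0.118, followed by Brhy with 0.0361, and no rhythm had 0.000884. In Gaussian fits to CPM its weight for ABsync was 0.751, a model to which 8.65% of genes were assigned by that fit.

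Gad2 was not assigned to any model. Its highest BICW was 0.480 for no rhythm, followed by Brhy with 0.274 and ABsync with 0.186. No rhythm was the assigned model of 69.2% of all genes, Arhy of 2.4%, Brhy of 4.3% and ABdiff of 0.307%. In the Gaussian fits the weight of Gad2 was 0.381 for no rhythm and 0.346 for Brhy. These fits assigned 47.7% of all genes to no rhythm, 5.58% to Arhy, 8.26% to Brhy and 2.61% to ABdiff. The assignment of one gene and not of the other does not show that their profiles differ, and that difference was not tested.

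**Figure D2:**
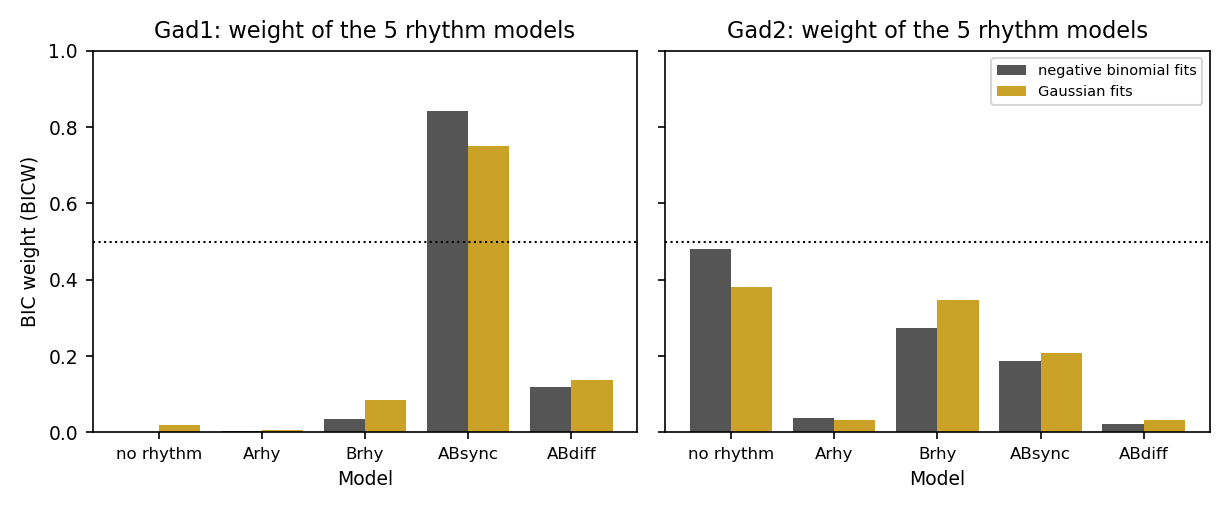
BICW of the 5 models for Gad1 (left) and Gad2 (right), with bars from 0 for negative binomial and Gaussian fits and a dotted line at the threshold of 0.5. ABsync passed the line for Gad1 in both fits, and no model passed it for Gad2.

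Single libraries carried much of these fits. Leaving out the CT3 library of Group B, where both genes were lowest, reduced the fitted difference from trough to peak in Group B from 0.38 to 0.24 for Gad1 and from 0.40 to 0.25 for Gad2. Leaving out CT6 of Group B raised that of Gad2 to 0.60 and assigned Gad2 to Brhy with a BICW of 0.853. Without CT3 of Group B, Gad2 was assigned to no rhythm with 0.741. With each library left out in turn, the BICW of ABsync for Gad1 was from 0.583 without CT18 of Group A to 0.889 without CT12 of Group A. In Group A the fitted difference of Gad1 was lowest, 0.20, without CT18.

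**Figure D3:**
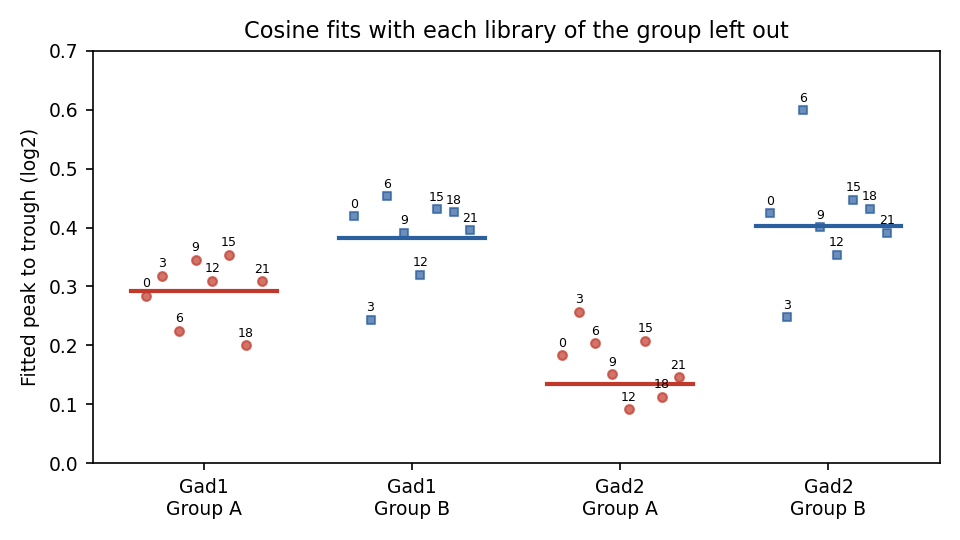
Fitted log2 difference from trough to peak of each gene and group, with horizontal lines for all 8 libraries and 1 point for each library of that group left out, labelled by its CT. The lowest points in Group B are those without CT3 and the highest those without CT6, for both genes.

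Between the groups, Gad1 was higher in Group B at 7 of the 8 circadian times in CPM, as was so for 5.17% of all genes at 7 or more times. The exception was CT3, where Group B had 246 and Group A 262 CPM. At CT18 the groups were nearly equal (331 against 330 CPM), and with TMM scaling this time turned, leaving 6 of 8 (16.4% of genes at 6 or more times). From CT0 to CT21 the CPM of Group B was 1.15, 0.936, 1.36, 1.04, 1.36, 1.21, 1.004 and 1.19 times that of Group A. Over all times the mean log2 difference of Group B from Group A was 0.19 (SE 0.082 between 8 and 8 libraries, 0.069 between libraries paired by circadian time). The median of all genes, from negative binomial fits, was -0.0026, a value that TMM scaling holds near 0. The spread of this difference over all genes is not given here. Single libraries overlapped widely, with 239 to 330 CPM for Group A against 246 to 377 CPM for Group B.

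Gad2 did not differ in level between groups by more than the scatter. The mean log2 difference was 0.015 (SE 0.10, or 0.11 paired by circadian time), and Gad2 was higher in Group B at 5 of 8 times (39.4% of all genes at 5 or more times). The direction varied with time, from 0.710-fold at CT3 and 0.746-fold at CT9 to 1.39-fold at CT6. These opposite differences at adjacent times rest on 1 library per group each.

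The ratio of Gad1 to Gad2 counts within a library is the same under every scaling by library size. It averaged 0.919 ± 0.0857 (SD, n = 8) in Group A against 1.03 ± 0.0743 (SD, n = 8) for litters of Group B. From CT0 to CT21 it was 0.863, 0.803, 0.983, 0.864, 0.839, 0.966, 1.02 and 1.02 in Group A. In Group B it was 1.01, 1.06, 0.965, 1.20, 1.03, 1.02, 0.972 and 1.01. In Group A 4 libraries, CT0, CT3, CT9 and CT12, lay below every library of Group B, and the ratio was higher in Group B at 5 of 8 times. At CT6, CT18 and CT21 it was slightly higher in Group A. A value of 1 has no meaning of its own here, since transcript lengths were not taken into account.

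**Figure D4:**
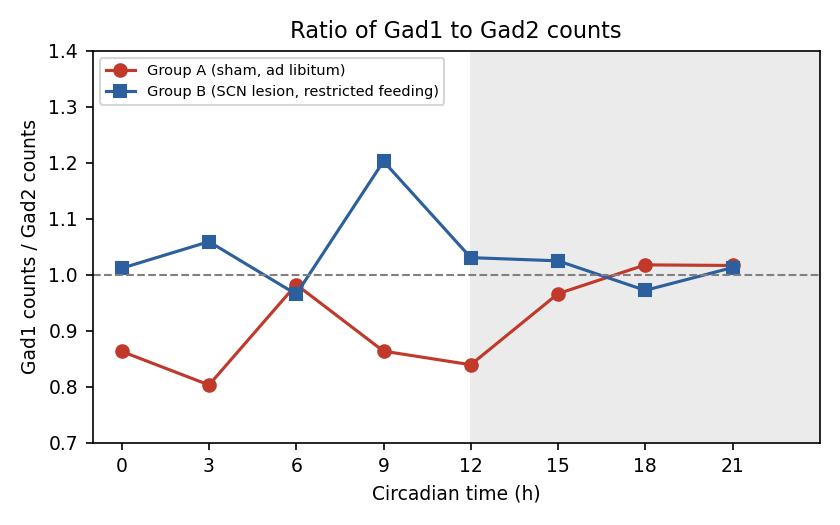
Ratio of Gad1 to Gad2 counts in each library against circadian time in h, with a dashed line at equal counts and the subjective night shaded. Group A lies below Group B from CT0 to CT15 except at CT6, and the CT9 library of Group B is the highest at 1.20.

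High Gad1 levels went with high Gad2 levels across libraries. Pearson's r of their log2 CPM was 0.705 and Spearman's rho 0.685 over 16 libraries. Within Group B they were 0.909 and 0.952 (n = 8), and within Group A 0.615 and 0.50 (n = 8). Whether the groups differ in this was not tested. Without CT12 of Group B and CT6 of Group A, which were farthest from the median of Gad1, r was 0.538 (n = 14). Without CT3 of Group B, r within that group was 0.810 (n = 7). These are descriptions, given without tests, and the points of a library share its litter, punch and depth.

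**Figure D5:**
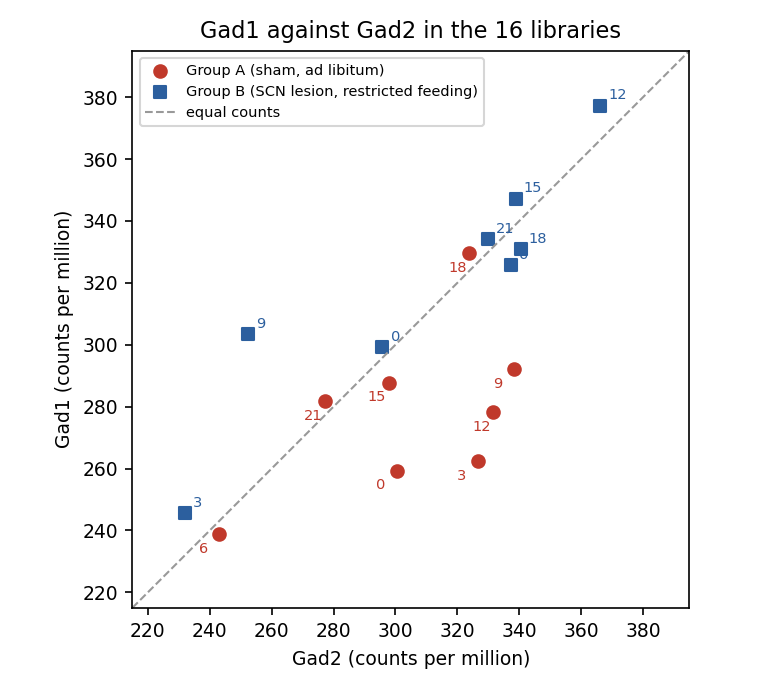
CPM of Gad1 against that of Gad2 in the 16 libraries, labelled by CT, with a dashed line where counts are equal. Libraries of Group B run along the line except CT9, and those of Group A at CT0, CT3, CT9 and CT12 lie farthest below it.

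Among 9973 genes with a mean of at least 100 counts, Gad1 was the gene with rank 32 in likeness to Gad2, and Gad2 had rank 228 in likeness to Gad1, by Pearson's r over the 16 libraries. Within Group A these ranks were 833 and 996, and within Group B 17 and 29 (n = 8 libraries each). The median r of all these genes was 0.033 with Gad1 and 0.032 with Gad2. The gene most like Gad1 was ENSRNOG00000014010 (r = 0.944), which had its highest level in Group A at CT18 (44.1 CPM) and its lowest at CT6, as Gad1 did. The gene most like Gad2 was ENSRNOG00000058571 (r = 0.832), lowest of all libraries at CT3 of Group B with 45.5 CPM. The most opposed genes were ENSRNOG00000021840 for Gad1 (r = -0.900), with 23.8 CPM at CT6 of Group A and 2.82 CPM at CT12 of Group B, and ENSRNOG00000007133 for Gad2 (r = -0.772). Symbols for these identifiers were not looked up here.

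The main axis of variation of the whole transcriptome was set beside both genes. The first principal component of log2 CPM held 22.7% of the variance, and its scores had an r of 0.661 with Gad1 and of 0.411 with Gad2 over the 16 libraries. The sign of the component is arbitrary and was set so that its r with Gad1 is positive. At the low end were CT3 of Group B (-31.4) and CT6 of Group A (-30.6), the lowest libraries of both genes in each group. Next came CT15 of Group A (-22.9), whose 288 CPM of Gad1 and 298 CPM of Gad2 were near the group means of 279 and 305. At the high end were CT9 of Group B (33.6) and CT18 of Group A (28.01). CT18 was the highest library of Gad1 in Group A, whereas CT9 of Group B was among the lower ones of its group, with 303 CPM of Gad1 and 252 CPM of Gad2. Pearson's r with the log2 total count was 0.136 for Gad1 and -0.202 for Gad2. The part of this axis in the profiles of Gad1 and Gad2 was not tested.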

How the data were processed

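RNA-Seq counts of 16 pooled fetal SCN libraries were used. After rRNA depletion and polyA enrichment, the authors aligned single-end reads to rn6 (Rnor_6.0) by HISAT2 2.1.0 and deposited raw counts per Ensembl gene. Their notes name Salmon and StringTie for quantification. The annotation is not given in the sources used here. The name of each of the 16 columns gave group and time, and no libraries were identical.

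The following was computed here with R 4.3.3, edgeR 4.0.16 and DESeq2 1.42.0. Genes with at least 1.5 CPM in 3 libraries were kept. Cosines were fitted by least squares to log2 CPM (TMM, with 0.001 added). Model selection followed dryR, with DESeq2 size factors and dispersions and the deviance of edgeR's negative binomial fits. Depth was 10047500 to 18738585 counts per library, and each time has 1 library per group.

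The members, lists and tests were chosen with earlier results of these data known. Lists of GABA pathway, SCN and other marker genes, and edgeR tests on them, had been planned but were not run, because identifiers could not be matched to symbols. The naming rule was Gad1, Gad2, genes of these lists, and the 5 closest and 3 most opposed genes of each member, of which only the first of each is printed. Alternatives were other scalings, each library left out, circadian time as a block, Gaussian fits, a BICW threshold of 0.75, a straight line, and Spearman or within-group correlations. Filters and DESeq2 tests planned for the lists were not run.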

Additional observations from a re-analysis of the deposited data

Results flagged for a closer look

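The ratio of Gad1 to Gad2 counts was 1.20 in the CT9 library of Group B, far above the other 7 libraries of that group, of which the highest had 1.06 and the lowest 0.965. The gap made up 0.604 of the range, beyond Dixon's limit for 8 values, which chance passes in 5% of groups. The ratio comes from the counts with which the genes were chosen, so that this is a description of 1 library and no test. This library is also the deepest of the series, with 18738585 counts, and has the highest score on the first principal component (33.6). The counting error in this library was 1.33% for Gad1 and 1.45% for Gad2. The part of depth, litter or the principal component in the ratio was not tested. Its Gad2 level of 252 CPM was the second lowest of Group B, while its Gad1 level was 303 CPM. Of 14 sets of values checked in this way (Gad1, Gad2, their ratio and 4 properties of the libraries, in each group), this was the 1 beyond the limit, and chance alone would give 0.7.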

How the results depend on the processing

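The fitted and averaged values of Gad1 and Gad2 moved by less than their spread under DESeq2 size factors and total counts. With circadian time as a replicate block the log2 difference of Group B from Group A was 0.19 for Gad1 and 0.016 for Gad2. Of 54 values under other settings, 53 kept their call or stayed within the spread. The exception was the r of Gad1 with Gad2, which was 0.909 within Group B, above the 95% interval of r over all libraries. That interval ignores the larger error of an r from 8 libraries, so no difference is shown. After removing each group's mean, r was 0.804. Some of the 54 could not change, such as the count ratio under rescaling and the night to day ratios under total counts. The spread was mostly an SD between libraries or of residuals, so large moves can still count as kept. For Gad2 in Group A the straight line gave -0.017 over CT0 to CT21, where the cosine gave 0.14. The BICW of ABsync for Gad1 also exceeded a threshold of 0.75 with all 16 libraries, though only just in the Gaussian fits (0.751). It fell below 0.75 without some single libraries, to 0.583 without CT18 of Group A.

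Each library was left out in turn. The fitted log2 difference from trough to peak of Gad1 then lay between 0.20 and 0.35 (Group A) or 0.24 and 0.45 (Group B), and that of Gad2 between 0.092 and 0.26 or 0.25 and 0.60. Peak times of Gad1 lay between 15.9 and 17.6 h or 13.9 and 15.3 h. Those of Gad2 lay between 8.32 h (without CT6) and 17.0 h for Group A, or 14.3 and 17.0 h for Group B. The BICW of no rhythm for Gad2 lay between 0.0050 (without CT6 of Group B, when Brhy was assigned) and 0.741. It passed 0.5 without CT12 or CT18 of Group A, and without CT0, CT3, CT12, CT15 or CT18 of Group B. The log2 difference of Group B from Group A lay between 0.15 and 0.24 for Gad1, and between -0.032 (without CT6 of Group A) and 0.073 for Gad2. Each time has 1 library per group. The counting error of a library was smaller than the scatter between a group's libraries, in which time and litter cannot be told apart. The planned tests of pathway genes, with their filters and DESeq2 alternatives, were not run.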
